A study of Mus musculus with 2 samples.

Results

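The Krüppel-like factors (Klf) are zinc-finger transcription factors that bind GC-rich and CACCC sequences through a closely similar DNA-binding end and differ in the rest of the protein. Klf2, Klf4 and Klf5 are known for sustaining self-renewal of mouse embryonic stem cells (ESCs), where each can compensate in part for loss of the others, and Klf4 is one of the factors used to reprogram fibroblasts. The homeodomain protein Nanog belongs to the same circuit and binds enhancers of many pluripotency genes together with Oct4 and Sox2. Nanog sites were therefore examined around 10 Klf genes, of the 21938 protein-coding genes annotated on chromosomes 1 to 19, X and Y: Klf2, Klf4 and Klf5, here called the ESC-active members, and the other 7 members Klf3, Klf6, Klf7, Klf9, Klf10, Klf12 and Klf13. The 10 share the family name but are not the whole family, and they were chosen with earlier results of these data known. A further 7 Klf genes are described below with the Sp genes. The word ESC-active rests on what is known of these genes, since no expression was measured in this series.

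The data came from Bruce-4 cells, a mouse ESC line grown in serum and LIF, in which chromatin was precipitated with a rabbit monoclonal antibody to Nanog and sequenced (ChIP-seq). There was 1 immunoprecipitated sample and 1 input sample (chromatin that was not precipitated), both from the same line, with no treatment or altered genotype given in the labels and no replicates. The input has no peak list and was not analysed here. The authors' peak list held 8737 distinct intervals on the mm10 genome, 8735 of them on the chromosomes used here, and no strength or read count, so that the depth behind a peak is unknown, no value below has a replicate error, and no p-value is given. The label ESC could not be checked against marker genes in a list of positions.

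A peak was counted for a gene in 2 ways. The first counts the peaks whose middle base lies within 100 kb of the transcription start site (TSS), which here is the 5' end of the annotated gene, so that 1 peak can count for several genes. The second assigns each peak to the protein-coding gene with the nearest TSS, up to 1000 kb away. By these counts, 26 peaks lay within 100 kb of a Klf TSS and 37 were assigned to a Klf gene, with 25 in both sets. All 37 were listed on a single line of the file, so no repeated interval entered a count.

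The central 200 bp of 12 of these peaks are shown because the values below turn on them: the peak closest to Klf2, all 5 peaks of Klf4, the 2 peaks downstream of and closest to Klf5, and the closest peak of Klf3, Klf9, Klf10 and Klf13. They were read from GRCm38, the assembly that mm10 denotes, on the plus strand. Capitals mark exact copies, on either strand, of the Klf words CCACACCC and CCACGCCC, the Sox words CCATTGT and CCTTTGT, and the Nanog core CCATTA.
Klf2, upstream, chr8:72316203-72316402: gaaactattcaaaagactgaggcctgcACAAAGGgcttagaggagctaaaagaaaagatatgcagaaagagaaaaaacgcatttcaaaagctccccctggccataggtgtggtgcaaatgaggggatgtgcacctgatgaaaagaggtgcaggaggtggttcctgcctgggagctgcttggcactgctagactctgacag
Klf4, downstream, chr4:55516023-55516222: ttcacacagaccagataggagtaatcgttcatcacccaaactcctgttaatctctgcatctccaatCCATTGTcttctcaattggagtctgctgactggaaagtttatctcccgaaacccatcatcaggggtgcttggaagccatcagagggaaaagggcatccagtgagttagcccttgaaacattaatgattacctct
Klf4, downstream, chr4:55514840-55515039: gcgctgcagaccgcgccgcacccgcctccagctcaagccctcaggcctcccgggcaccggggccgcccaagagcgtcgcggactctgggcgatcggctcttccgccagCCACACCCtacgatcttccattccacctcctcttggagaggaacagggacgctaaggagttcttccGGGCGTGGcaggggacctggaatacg
Klf4, downstream, chr4:55477500-55477699: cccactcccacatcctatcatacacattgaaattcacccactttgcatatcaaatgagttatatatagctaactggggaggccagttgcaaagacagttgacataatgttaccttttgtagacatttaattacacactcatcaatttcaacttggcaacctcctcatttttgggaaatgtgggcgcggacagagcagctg
Klf4, downstream, chr4:55475474-55475673: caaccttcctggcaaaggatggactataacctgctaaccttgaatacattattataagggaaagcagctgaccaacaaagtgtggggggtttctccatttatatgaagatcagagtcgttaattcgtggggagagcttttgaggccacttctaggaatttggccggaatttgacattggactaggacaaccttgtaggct
Klf4, downstream, chr4:55464258-55464457: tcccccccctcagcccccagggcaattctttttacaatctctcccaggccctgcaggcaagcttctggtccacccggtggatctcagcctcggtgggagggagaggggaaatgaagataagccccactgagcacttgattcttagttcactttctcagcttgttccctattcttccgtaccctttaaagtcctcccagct
Klf5, downstream, chr14:99324748-99324947: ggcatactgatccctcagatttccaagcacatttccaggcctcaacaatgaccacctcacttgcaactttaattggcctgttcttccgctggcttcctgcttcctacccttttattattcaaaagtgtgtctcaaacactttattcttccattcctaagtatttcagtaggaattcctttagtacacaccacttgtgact
Klf5, downstream, chr14:99340043-99340242: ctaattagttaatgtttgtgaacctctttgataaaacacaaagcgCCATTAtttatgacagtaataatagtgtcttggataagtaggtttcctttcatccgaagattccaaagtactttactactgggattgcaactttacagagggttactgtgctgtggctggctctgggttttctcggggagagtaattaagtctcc
Klf3, downstream, chr5:64806311-64806510: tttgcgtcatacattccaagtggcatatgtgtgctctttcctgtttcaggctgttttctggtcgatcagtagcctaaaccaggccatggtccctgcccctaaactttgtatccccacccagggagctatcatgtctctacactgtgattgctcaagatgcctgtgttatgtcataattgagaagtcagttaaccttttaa
Klf9, upstream, chr19:23133062-23133261: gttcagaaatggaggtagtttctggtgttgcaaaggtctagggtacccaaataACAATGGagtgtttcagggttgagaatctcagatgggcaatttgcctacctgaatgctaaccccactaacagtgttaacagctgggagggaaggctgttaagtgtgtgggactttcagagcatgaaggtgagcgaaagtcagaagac
Klf10, upstream, chr15:38313135-38313334: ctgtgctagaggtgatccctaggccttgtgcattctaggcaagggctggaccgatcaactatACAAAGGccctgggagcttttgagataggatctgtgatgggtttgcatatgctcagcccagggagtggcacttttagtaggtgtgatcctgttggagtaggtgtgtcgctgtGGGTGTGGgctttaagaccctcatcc
Klf13, upstream, chr7:63947603-63947802: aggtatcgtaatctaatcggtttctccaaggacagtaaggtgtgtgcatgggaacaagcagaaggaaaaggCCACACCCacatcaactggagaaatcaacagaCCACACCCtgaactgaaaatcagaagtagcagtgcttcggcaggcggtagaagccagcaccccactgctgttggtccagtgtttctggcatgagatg

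Nanog peaks were present near all 3 ESC-active genes and near some, not all, of the other members. Klf4 had 5 peaks within 100 kb of its TSS, Klf5 had 4 and Klf2 had 3. Of the other members, Klf3 had 5, Klf9 had 4, Klf13 had 3, Klf7 and Klf10 had 1 each, and Klf6 and Klf12 had 0. In all, 8 of the 10 members had at least 1 peak, where 54.4% of all protein-coding genes did. The ESC-active members summed to 12 peaks, a mean of 4 and a median of 4 per gene, and the other members to 14, a mean of 2 and a median of 1. The groups overlapped, because Klf3 reached the count of Klf4 and Klf9 that of Klf5.

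**Figure D1:**
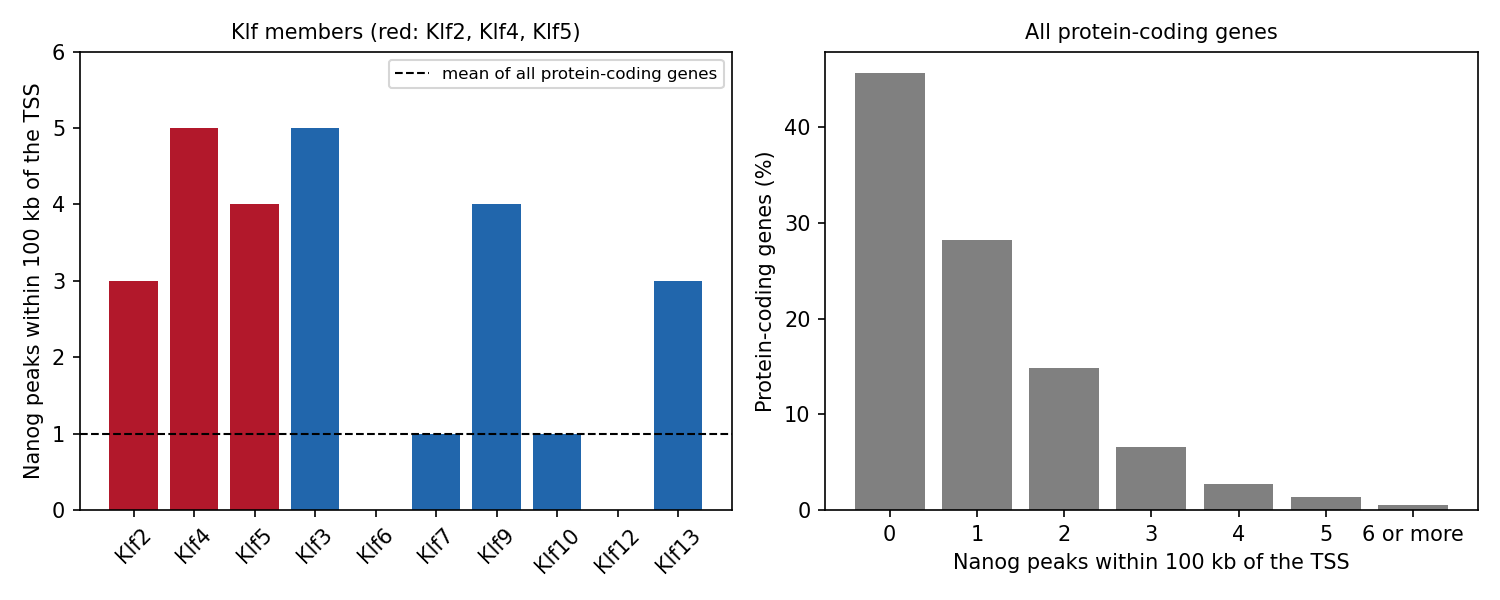
Nanog peaks within 100 kb of the TSS of each Klf gene (left, bars, with the mean over all protein-coding genes as a dashed line at 0.992) and the percentage of all protein-coding genes with each count (right). The 3 ESC-active members (red) sit at 3 to 5, and the other members (blue) range from 0 to 5.

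Set against the genome, the higher counts were uncommon. A count of 3 or more within 100 kb was found for 11.3% of protein-coding genes and for 6 of the 10 Klf genes, namely all 3 ESC-active members and 3 of the other 7. A count of 4 or more was found for 4.69% of genes, and a count of 5, as for Klf3 and Klf4, or more for 1.92%. The limit of 3 was chosen after the counts were seen, and the members with earlier results of these data known. The highest count of any protein-coding gene was 10.

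Assignment to the nearest TSS gave a wider spread. Klf5 was the nearest protein-coding gene of 9 peaks, a number reached by 0.0957% of protein-coding genes. Klf4, Klf3 and Klf9 each had 5 peaks, where 0.725% of protein-coding genes had 5 or more. Klf6 had 4, Klf2 and Klf13 had 3, where 3.35% had 3 or more, and Klf7, Klf10 and Klf12 had 1. All 10 members were thus the nearest gene of a peak, against 24.4% of protein-coding genes. The members were chosen with earlier results of these data known. Their shares, here and within 100 kb, therefore do not describe the Klf family as a whole. Among the 7 further Klf genes described below, Klf14 alone was assigned a peak, and it had 1. The ESC-active members held 17 assigned peaks, of which Klf5 alone gave 9, and the other members held 20, so that the mean was 5.67 per gene against 2.86.

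The length of DNA that a gene can draw peaks from differs between genes, and its part in these counts was not tested. The stretch to which a gene has the nearest coding TSS, called its territory here and cut off at 1000 kb on each side, had a median of 47.7 kb over all protein-coding genes and of 478.0 kb over the 10 members. It ran from 58.1 kb for Klf2 to 969.5 kb for Klf6, and even that of Klf2 was longer than the territory of 57.0% of protein-coding genes. Per length of territory, Klf2 had 51.6 peaks per Mb, Klf13 25.3, Klf5 15.2, Klf3 12.9, Klf9 8.81, Klf4 7.19, Klf10 6.67, Klf6 4.13, Klf7 2.62 and Klf12 1.05. Over all territories the density was 3.34 peaks per Mb, so that Klf7 and Klf12 were the 2 members below it. Summed over genes, the ESC-active members had 12.6 peaks per Mb (exact 95% Poisson interval 7.36 to 20.2) and the other members 5.67 (3.46 to 8.76). These intervals overlap and cover counting error only. They treat peaks as independent, which peaks that share a locus are not, so they may be too narrow. Of the 17 peaks of the ESC-active members, 9 came from Klf5.

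**Figure D2:**
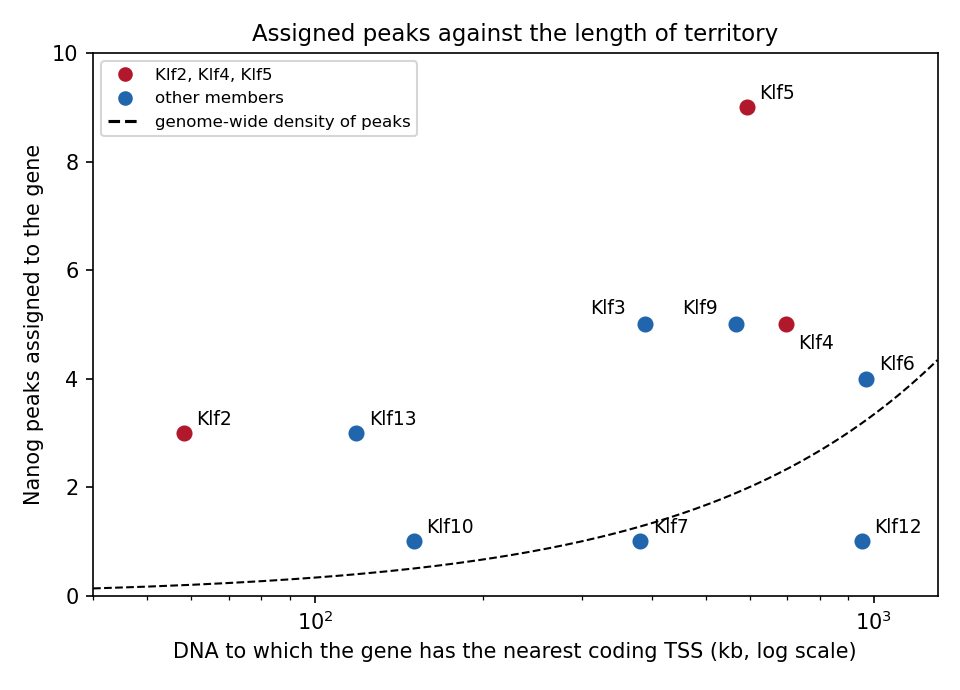
Peaks assigned to each Klf gene (vertical axis) against the length of DNA to which that gene has the nearest coding TSS (horizontal axis, kb, log scale), with the number that the density over all territories, 3.34 peaks per Mb, would give as a dashed line. Klf7 and Klf12 lie below the line and the other 8 members above it.

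Klf2, which besides its part in ESCs is known for its role in blood vessel lining, had the most compact arrangement. Its TSS lies on chromosome 8 (ENSMUSG00000055148.7, 72319033 to 72321656, plus strand). A peak of 531 bp at chr8:72316037-72316567 was centred 2.73 kb upstream, and one of 240 bp at chr8:72312820-72313059 lay 6.09 kb upstream. The remaining peak, of 362 bp, at chr8:72334201-72334562, lay 15.3 kb downstream. All 3 were between genes, and Klf2 was the nearest gene of each also when noncoding genes and pseudogenes were counted. It was the one ESC-active member with a peak within 5 kb of its TSS, as 6.2% of protein-coding genes had.

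Klf4, a target of LIF signalling through Stat3 in ESCs, had all of its peaks on 1 side. The gene lies on chromosome 4 (ENSMUSG00000003032.8, 55527143 to 55532466, minus strand), and all 5 peaks lay downstream of it, in 2 groups. The near group held a peak of 235 bp at chr4:55516005-55516239, 16.3 kb from the TSS, and one of 270 bp at chr4:55514805-55515074, 17.5 kb away. The far group held peaks of 495 bp at chr4:55477352-55477846 (54.9 kb), 442 bp at chr4:55475353-55475794 (56.9 kb) and 819 bp at chr4:55463948-55464766 (68.1 kb). A cluster of enhancers downstream of Klf4 is known from mouse ESCs. The widest of these peaks ranked 25 among the 8735 and lay in an intron of the lincRNA gene Gm12510, 1457 bp from its start, while the other 4 were between genes. For each of the 5, a noncoding gene or pseudogene had a nearer TSS than Klf4.

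Klf5, which is needed in the early embryo as well as in ESCs, differed in reach. The gene lies on chromosome 14 (ENSMUSG00000005148.8, 99298691 to 99315036, plus strand), and no peak lay within 25 kb of its TSS. Of its 4 peaks within 100 kb, 3 lay downstream, at 26.2 kb (456 bp wide, chr14:99324620-99325075), 41.5 kb (275 bp) and 49.6 kb (295 bp). The remaining one lay 78.7 kb upstream in an intron of Pibf1 (263 bp). Another 5 assigned peaks lay farther downstream, at 182.2, 211.6, 215.5, 238.8 and 487.9 kb, with widths of 240, 511, 337, 299 and 341 bp. The last of these lies almost midway to Klf12, whose TSS is 986.0 kb from that of Klf5. When the TSS of every transcript was used, the number of assigned peaks was 7 for Klf5 and 2 for Klf12.

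**Figure D3:**
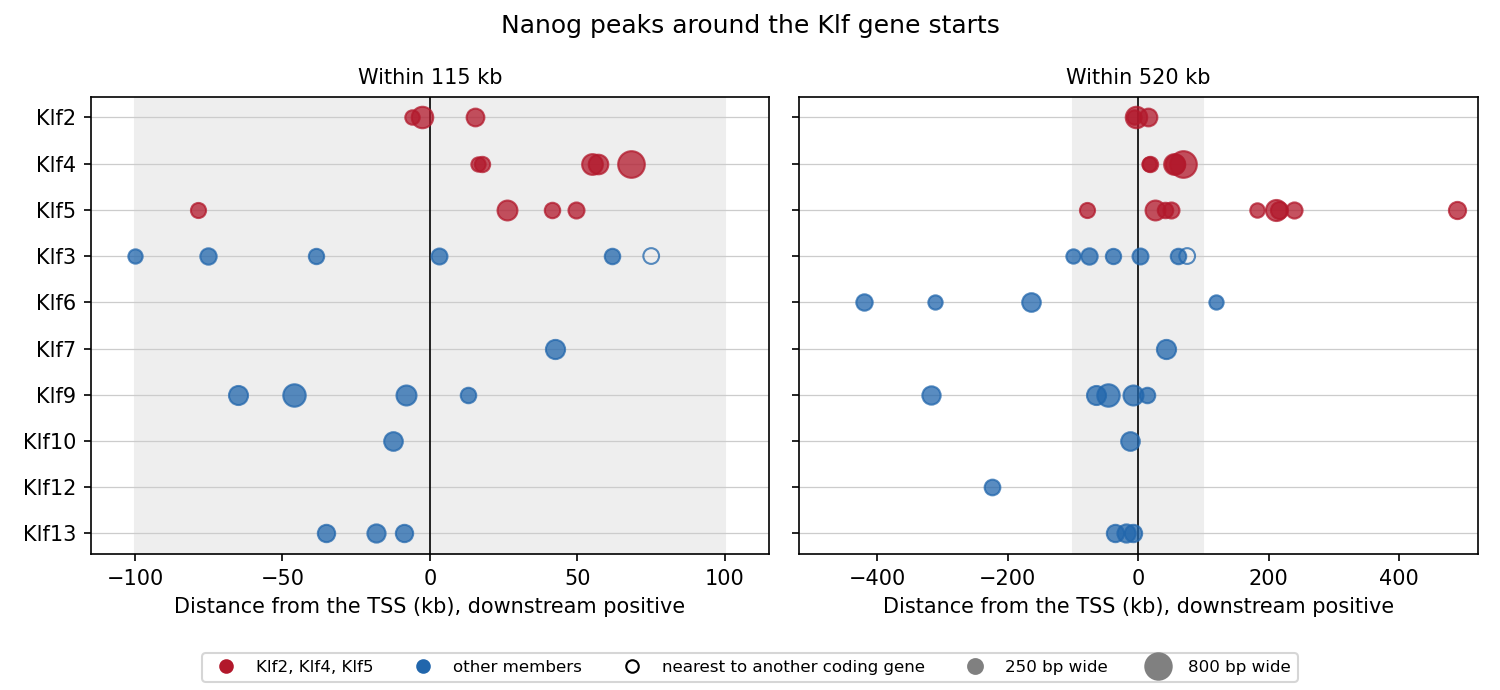
Nanog peaks around each Klf TSS by distance in kb, with downstream of the gene to the right and upstream to the left, in a near view (left) and a wide view (right). Point area stands for peak width, grey shading for 100 kb on each side, and the open circle for a peak nearer to another coding gene. The peaks of Klf4 lie downstream in 2 groups, those of Klf13 lie upstream, and those of Klf5 reach 487.9 kb downstream.

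Among the other members, Klf3, a repressor that acts through the co-repressor CtBP, was the one with the most peaks within 100 kb. The gene lies on chromosome 5 (ENSMUSG00000029178.14, 64803388 to 64832901, plus strand). Its closest peak, of 293 bp, at chr5:64806264-64806556, lay in its own intron 3.02 kb downstream of the TSS, and the others were at 38.6 and 75.3 kb upstream and at 61.6 and 75.0 kb downstream. The peak 75.0 kb downstream was nearer to Tlr1, which encodes a receptor of innate immunity. A further peak lay 100.1 kb upstream, just outside the window. All 6 were between 235 and 308 bp wide, below the median width of all peaks of 319 bp.

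Klf9, a factor induced by glucocorticoid and thyroid hormone, lies on chromosome 19 (ENSMUSG00000033863.2, 23141226 to 23168134, plus strand). Its closest peak, of 460 bp, at chr19:23132932-23133391, lay 8.06 kb upstream. Peaks of 580 and 418 bp followed at 46.0 and 65.1 kb upstream, and one of 276 bp lay in its own intron 12.7 kb downstream. A further assigned peak, of 386 bp, lay 317.7 kb upstream in an intron of Trpm3. The peak 65.1 kb upstream was 168 bp from the start of the lincRNA gene C330002G04Rik.

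Klf13, studied chiefly in lymphocytes, lies on chromosome 7 (ENSMUSG00000052040.10, 63886351 to 63938915, minus strand). Its 3 peaks lay upstream at 8.79, 18.3 and 35.4 kb, with similar widths of 346, 381 and 347 bp, and the closest was at chr7:63947530-63947875. Each was between genes.

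Within 100 kb and by nearest gene, the remaining members had sparse or distant sites. Klf10, a gene induced by TGF-beta, lies on chromosome 15 (ENSMUSG00000037465.10, 38291463 to 38300706, minus strand), and its peak of 401 bp at chr15:38313034-38313434 lay 12.5 kb upstream. Within 250 kb of the Klf10 TSS there were 6 peaks, as at Klf4, although 1 was assigned to Klf10. Klf7, known from neuronal development, lies on chromosome 1 (ENSMUSG00000025959.13, 64029447 to 64122282, minus strand), and its peak of 424 bp at chr1:64079753-64080176 lay in its own intron, 42.3 kb downstream of the TSS. Klf6, a widely expressed member, lies on chromosome 13 (ENSMUSG00000000078.7, 5861482 to 5870394, plus strand). Its 4 assigned peaks were all farther than 100 kb, at 118.8 kb downstream (235 bp wide) and at 163.9, 311.1 and 420.8 kb upstream (399, 235 and 309 bp). Klf12, a repressor that like Klf3 recruits CtBP, lies on chromosome 14 (ENSMUSG00000072294.5, 99870632 to 100284679, minus strand), and its assigned peak of 283 bp at chr14:100509452-100509734 lay 224.9 kb upstream. Whether weaker Nanog sites lay nearer to Klf6 or Klf12 cannot be read from a list cut at an unstated threshold.

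In distance to the closest peak the ESC-active members did not stand apart. Klf2, Klf3, Klf9 and Klf13 had a peak within 10 kb, as 10.5% of protein-coding genes did, followed by Klf10 (12.5 kb), Klf4 (16.3 kb), Klf5 (26.2 kb), Klf7 (42.3 kb), Klf6 (118.8 kb) and Klf12 (224.9 kb). The median was 16.3 kb for the ESC-active members, 12.5 kb for the other members and 85.3 kb over all protein-coding genes. None of the 10 had a peak within 2.5 kb, where 3.78% of genes had one.

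As the window widened, the mean count per gene stayed higher for the ESC-active members. It was 1.67 against 0.857 at 25 kb, 2.67 against 1.43 at 50 kb, 7 against 3.71 at 250 kb and 9.67 against 5.86 at 500 kb, with 0.267, 0.514, 2.41 and 4.67 over all protein-coding genes. The ranges of the groups overlapped at each of these windows. At 500 kb, for example, they ran from 6 to 13 and from 2 to 9.

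**Figure D4:**
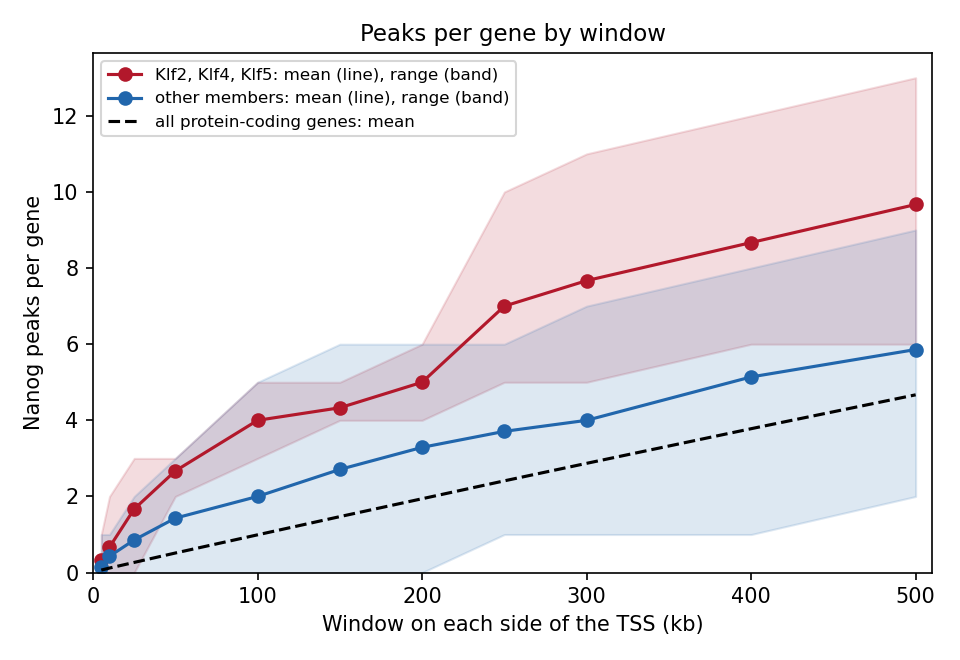
Mean Nanog peaks per gene (vertical axis) within windows of 5 to 500 kb on each side of the TSS (horizontal axis), for Klf2, Klf4 and Klf5 (red), the other 7 members (blue) and all protein-coding genes (dashed). Bands span the lowest and highest gene of each group and overlap throughout. The red mean is 4 at 100 kb and the blue one 2.

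The side and the spacing of the sites were also compared. Of the 17 peaks assigned to ESC-active members, 14 lay downstream of the TSS, and of the 20 assigned to the other members, 5 did, where 54.5% of all assigned peaks lay downstream. The first count came from Klf4 (5 of 5) and Klf5 (8 of 9), whereas Klf2 had 1 of 3 downstream, so that it was not shared by the ESC-active members. Within 100 kb the downstream peaks were 9 of 12 and 5 of 14. Of the 17, 11 (64.7%) had another Nanog peak within 12.5 kb, edge to edge: 2 of 3 at Klf2, all 5 at Klf4 and 4 of 9 at Klf5. Of the 20, 2 (10.0%) did, both at Klf13. Among all peaks the share was 24.1%. With 25 kb in place of 12.5 kb the counts became 14 of 17 and 10 of 20, against 36.0% of all peaks, and with 5 kb they were 8 and 0, against 13.9%. Peaks that share a locus are not independent, and these shares rest on 3 and 7 genes. These features were picked out after the positions were seen.

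By annotation, 23 of the 37 assigned peaks were centred between genes, 14 in introns and 0 in exons. The intron was that of the Klf gene itself for 3 peaks, at Klf3, Klf7 and Klf9. Of the 37 peaks, 6 (16.2%, exact 95% interval 6.19 to 32.0) lay within 2 kb of the start of a noncoding gene or pseudogene, against 6.63% of all peaks, which the interval includes. This limit was set after the positions were seen. They were the widest peak of Klf4, the peaks of Klf7 and Klf10, the closest peak of Klf13 and 2 peaks of Klf9. With all annotated genes competing for a peak, 4 peaks stayed with ESC-active members (3 with Klf2 and 1 with Klf5) and 1 with the other members (Klf3).

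Peak width is the only further measure that the list holds, and it is not a measure of strength. The 37 assigned peaks had a median width of 337 bp, with 19 (51.4%) at or above the median of all peaks, so that as a set they resembled the rest (50.2%). The medians were 337 bp for the ESC-active members and 327.5 bp for the others. Single genes departed from this. At Klf9, 4 of 5 assigned peaks were at or above the median, and at Klf13 all 3 were, whereas at Klf3 none of the 5 was. At Klf4 the far group measured 442 to 819 bp and the near group 235 and 270 bp, the former value being the smallest width in the list, shared by 778 peaks.

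**Figure D5:**
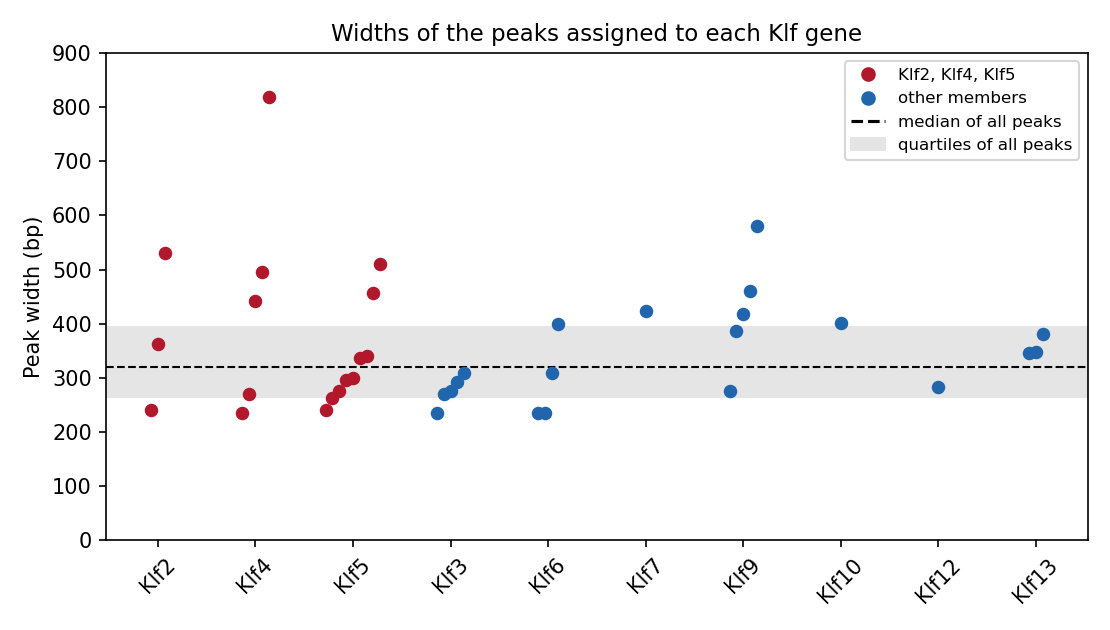
Width in bp of each peak assigned to a Klf gene (points), with the median of all peaks (dashed, 319 bp) and their quartiles (shaded, 265 to 393 bp). The widest point is the Klf4 peak of 819 bp. The 5 points of Klf3 all lie below the median.

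The sequence under the peaks was searched for words of factors known to act in ESCs, in the central 200 bp, and compared with the same window in all 8735 peaks. The Klf words CCACACCC or CCACGCCC were found in 4 of the 37 windows (10.8%, exact 95% interval 3.03 to 25.4), against 7.58% of all peaks. One belonged to an ESC-active member: the Klf4 window 17.5 kb downstream held both words, and its GC content was 68.0% where the median window had 47.5%. The others were at Klf3 (61.6 kb downstream), Klf10 and the closest peak of Klf13, which held CCACACCC more than once. The Sox words CCATTGT or CCTTTGT were in 7 windows (18.9%, 7.96 to 35.2) against 21.7% of all peaks, among them the windows of Klf2 and Klf4 shown above with such a word. The Nanog core CCATTA was in 3 (8.11%, 1.7 to 21.9) against 11.7%, at Klf5 and Klf9.

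The remaining words are rare in all peaks. The octamer ATGCAAAT was in 1 window, at Klf13 18.3 kb upstream (2.7%, exact 95% interval 0.0684 to 14.2), against 4.04% of all peaks. The Esrrb word TCAAGGTCA was likewise in 1 (Klf6, 311.1 kb upstream), against 2.36%. The Oct4-Sox2 composite with at most 2 mismatches was in 0 of 37, which allows up to 9.49% by the exact interval, against 1.08%. Each of these intervals includes the share of all peaks, but they treat peaks that share a locus as independent. At least 1 of the words was present in 4 of 17 windows of the ESC-active members (23.5%, 6.81 to 49.9), in 10 of 20 of the others (50.0%, 27.2 to 72.8) and in 41.1% of all peaks. The far group of Klf4 held none of them in the central window. No match says only that these letters are not in the window.

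The rest of the family was set beside the members and beside all protein-coding genes. The list held Klf1, Klf8, Klf11, Klf14, Klf15, Klf16, Klf17 and Sp1 to Sp9, which share the zinc-finger type of DNA-binding end. Of these 16 genes, 10 (62.5%) had a peak within 100 kb, against 54.4% of all protein-coding genes. The counts of the 16 summed to 14, a mean of 0.875 and a median of 1. A peak near several of these genes was counted for each of them, as at Sp2 and Sp6. Over all protein-coding genes the mean was 0.992, so in the count within 100 kb these genes were near the genome. Sp5, a target of Wnt signalling, was the one that reached the count of Klf2, with 3 peaks within 100 kb, the closest 10.1 kb from its TSS. Among the 7 further Klf genes, 4 had a peak, and the most was 2, at Klf1. By nearest gene, 6 of the 16 were assigned a peak, 12 in all, led by Sp8 with 5, where 24.4% of all protein-coding genes were assigned one. Per length of territory, the 6 genes had from 4.14 peaks per Mb (Klf14) to 28.8 (Sp2, with 1 peak), and the rest had 0. The density over all territories was 3.34, so in this measure the 6 were not near the genome. Territories were shorter here, with a median of 50.8 kb, and the part of this difference in the counts and densities was not tested.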

How the data were processed

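Nanog ChIP-seq of Bruce-4 ESCs gave 1 peak list. Per the study's methods and processing notes, the authors checked reads with FastQC, aligned them to mm10 with Bowtie2, removed low-quality, duplicate, blacklisted and mitochondrial reads with BEDtools and SAMtools, and called peaks with MACS2. The deposited columns are positions only. The threshold of the call and the use of the input as control are not given in the sources used here, and they set which weak sites appear. Sites below the threshold cannot be counted.

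Distinct intervals were counted once (8860 lines gave 8737), in 1-based positions. Genes came from GENCODE vM21 and sequence from RefSeq GRCm38. Distances ran from the middle base of a peak, and equal distances went to the first TSS in position. All 10 members and, around each, all peaks within 100 kb or assigned to it were described. Other Klf and Sp genes were named with values where they reached the lowest count of an ESC-active member. Sp2, Sp6, Sp8, Klf1 and Klf14 were named after their values were seen. The members and lists were chosen with earlier results of these data known. Territories, chains, sides and noncoding starts were added after seeing the positions. Intervals of shares are Clopper-Pearson and describe counting error alone. They treat peaks as independent, which peaks that share a locus are not, and the share of all peaks includes the peaks of the members. Words were searched on both strands, and the octamer lies inside the composite. Assignment and word search were tested on simulated data. Python 3.11.15, pandas 2.3.3 and scipy 1.17.1 were used. Alternatives were other windows, limits, TSS sets, edge distances, all lines, merged peaks, wider peaks and other words.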

Additional observations from a re-analysis of the deposited data

How the results depend on the processing

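No paired analysis was possible because the input, the other sample, has no peak list. Of 42 recomputed counts and shares, 31 stayed within 1.5 times the main count or within the interval of the share, and 11 did not. The 31 include the counts over all lines and over peaks merged within 300 bp, which equalled the main counts. Each peak counted here was listed once, so counting all lines could not change them. These settings therefore say nothing on stability. In the 250 kb window the ESC-active members had 21 peaks and the other members 26, since a longer stretch is counted. With peaks narrower than the median left out they had 6 and 8 within 100 kb, and 9 and 10 by nearest gene, since fewer peaks are counted. With all annotated genes competing, 4 and 1 peaks stayed assigned, and with a limit of 100 kb the other members had 13. For chains, added after seeing the data, the count of the other members was 0 at 5 kb and 10 at 25 kb. The mean number of peaks per gene was higher for the ESC-active members under each alternative that counted peaks of both groups. Single genes still overlapped. With peaks narrower than the median left out, Klf9 and Klf13 had 3 within 100 kb, as Klf4 had, and Klf2 had 2 and Klf5 1. The list gives no depth, so missed sites cannot be counted.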
